A study of Tigriopus californicus with 9 samples.

Results

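The contigs described here are assembled transcripts of the copepod Tigriopus californicus that carry no predicted protein name and differ strongly between San Diego and Santa Cruz animals. A contig was included when its predicted protein field read NA, its mean log2(RPKM + 1) differed between the populations by at least 2, and all 3 San Diego values lay on one side of both Santa Cruz values. RPKM scales the reads of a contig by its length and by the depth of the library. The rule took 102 of 13758 contigs, or 2.68% of the 3811 unnamed ones. Of these, 40 were higher in San Diego and 62 were lower in San Diego. Because the contigs were chosen by their San Diego and Santa Cruz values, the parental difference is given below as a description. The question left to the data is where the hybrids stood between the parents, and whether the direction of the cross mattered.

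Messenger RNA was sequenced in 9 libraries, each from 400 to 500 animals of all developmental stages pooled, held in a water bath at 20 °C for 2 h. The groups were San Diego (SD, 3 libraries), Santa Cruz (SCN, 2 libraries), hybrids from SD mothers and SCN fathers (SDf x SCNm, 2 libraries) and hybrids from SCN mothers and SD fathers (SCNf x SDm, 2 libraries). Hybrids had been mated among themselves to generation F3, starting from virgin females of one population and males of the other. Titles set the groups, since a second label on both SCNf x SDm libraries reads SDf x SCNm hybrid. Parents and hybrids never shared a sequencing run, so run and hybrid origin cannot be told apart. Whether replicates were separate cultures is not stated. The p-values below measure only how these libraries spread, which may be technical.

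Tigriopus californicus lives in rocky splash pools, and its populations along the Pacific coast are known for deep genetic divergence and for reduced fitness of later-generation hybrids. Mitochondria pass through the mother, so the crosses combine mixed nuclear genomes with different mitochondrial genomes. A pool of third-generation hybrids holds many genotypes at each locus, and the arithmetic mean of the parental levels is the usual reference for additive inheritance. Unnamed contigs of a transcriptome assembly are those that matched no described protein. They can hold fast-evolving genes, short peptides, fragments of longer transcripts or RNA without a coding role. For the contigs below the files give an identifier in each population and a level, and no function is given to any of them. Identifiers are those of the SD assembly without their prefix.

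Library depth, recovered from the step of 1 read in the low RPKM values, ran from 0.97 M to 17.1 M reads. SD replicate 3 (0.97 M) and SCN replicate 2 (1.63 M), sequenced together in run 3, were the shallowest. They had 0 reads in 7.55% and 8.19% of contigs, against at most 0.669% in any other library. SCN replicate 2 also had the lowest summed RPKM of 7 yolk protein contigs, 3989, where the other libraries held 11839 to 39150. A list of 50 cuticle contigs summed to 7679 in SD replicate 3 and 8093 in SCN replicate 2, against 12138 to 23434 in the other parental libraries and 20031 to 47103 in the hybrids. Summed levels of 35 muscle and 9 sperm and cilia contigs stayed within 6790 to 11982 and 43.5 to 85.3 RPKM. The 12 cell division contigs summed to 989, 1170 and 1003 RPKM in SD and 674 and 935 RPKM in SCN. In the hybrids they summed to 545 to 849 RPKM, so every SD library stood above all others. The part of depth, run and stage composition in the parental differences was not tested. In pooled whole animals, fewer cells of a type and less RNA per cell cannot be told apart.

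**Figure D1:**
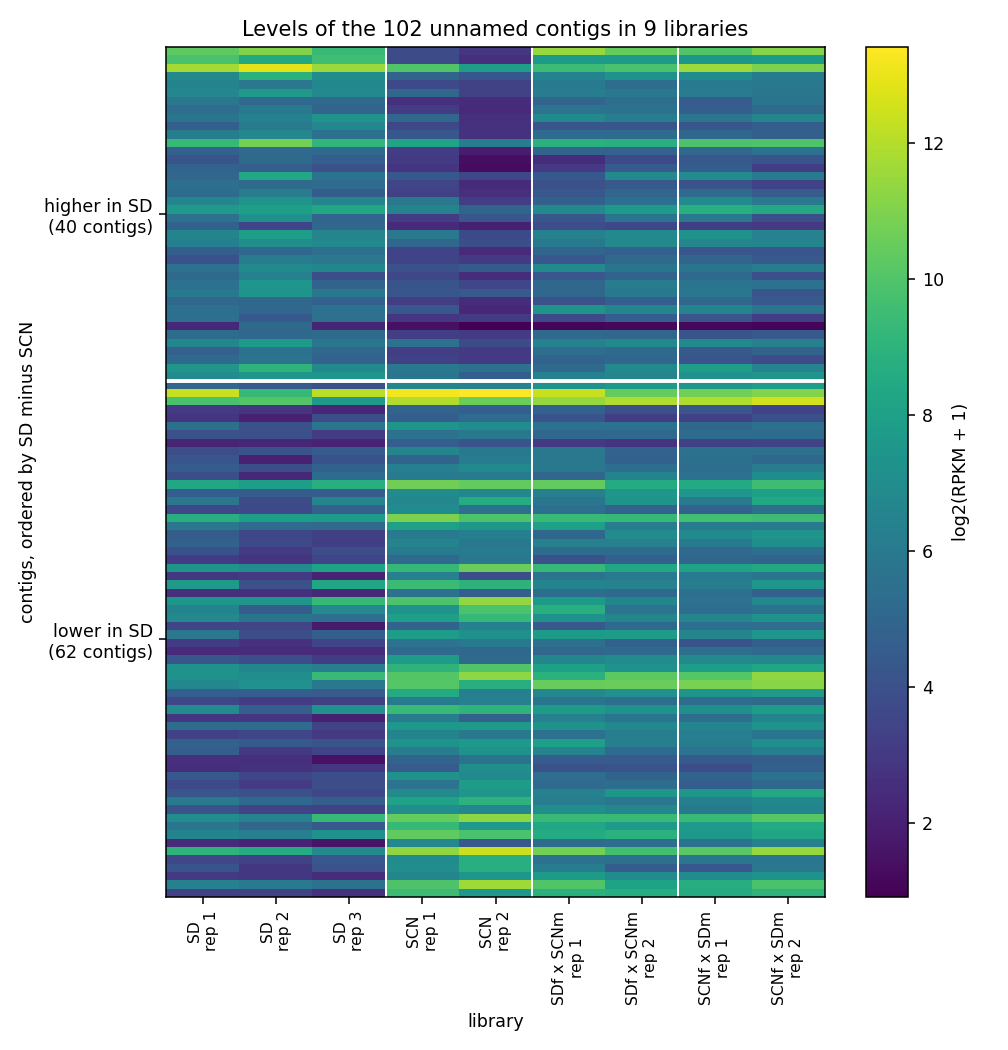
Level of each of the 102 unnamed contigs (rows, ordered by the SD minus SCN difference, the white line parting the 40 higher in SD from the 62 lower in SD) in each of the 9 libraries (columns); colour is log2(RPKM + 1). In the hybrid columns most rows take a colour at or between those of the parental columns, and both crosses look alike in most rows.

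The contigs higher in SD had a median mean level of 73.4 RPKM in SD and 10 RPKM in SCN. Their median was 43.5 RPKM in SDf x SCNm and 38.6 RPKM in SCNf x SDm. The parental difference ran from 2.02 to 6.88 on the log2(RPKM + 1) scale with a median of 2.24, and 2 of the 40 contigs passed 4. For 26 of the 40, the gap between the lowest SD and the highest SCN library exceeded 1 on the log2 scale. Read support on the low side was thin. In 20 of the 40 contigs the 2 SCN libraries held 10 or fewer reads in all, and 8 contigs had 0 reads in SCN replicate 2.

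Contig3123cap showed the largest parental difference of the unnamed contigs. Its RPKM was 1259, 2084 and 653 in SD replicates 1, 2 and 3, and 12.8 and 6.45 in SCN replicates 1 and 2, where it had 2 and 0 reads. The hybrids held 2894 and 1427 RPKM in SDf x SCNm and 1029 and 2237 RPKM in SCNf x SDm. All 4 hybrid libraries thus lay in or above the SD range, far from SCN. The SD level was 118-fold the SCN level on the log2(RPKM + 1) scale.

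Contig3677cap was second, at 891, 363 and 775 RPKM in SD and 13.2 and 5.01 RPKM in SCN. Its hybrid values were nearly the same in every library, 211 and 213 RPKM in SDf x SCNm and 181 and 212 RPKM in SCNf x SDm. They stood below all SD and above all SCN libraries. On an index where 0 is the SCN mean and 1 the SD mean, that placed the crosses at 0.74 and 0.72 in log2(RPKM + 1), and at 0.30 and 0.28 in linear RPKM.

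Contig1493cap was the most abundant of the 40 and the one whose crosses stood farthest apart. SD libraries held 3390, 7539 and 2985 RPKM and SCN libraries 1044 and 242 RPKM. SDf x SCNm measured 716 and 919 RPKM, inside the SCN range, and SCNf x SDm 3034 and 1989 RPKM, at or near the SD range. On the same index the crosses stood at 0.22 and 0.74 in log2(RPKM + 1), and 0.04 and 0.47 in linear RPKM.

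The other 7 of the 10 largest differences higher in SD lay between 2.68 and 2.96. Contig2018cap had 109, 487 and 121 RPKM in SD and 30.0 and 17.7 RPKM in SCN, with hybrids from 68.4 to 152 RPKM. Contig11661 had 90.3, 58.0 and 107 RPKM in SD, 11.8 and 8.91 RPKM in SCN, and 41.6 to 64.0 RPKM in the hybrids. Both had hybrids above every SCN library.

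Contig2359cap stood at 102, 198 and 114 RPKM in SD and 32.9 and 9.08 RPKM in SCN. Its hybrids, at 55.8 to 71.3 RPKM, fell in the gap between the populations. Contig21761 (57.2, 35.3 and 35 RPKM in SD, 5.30 and 4.64 RPKM in SCN) and Contig13815 (40.4, 61.8 and 30.5 RPKM in SD, 7.55 and 4.19 RPKM in SCN) had cross means near the SD mean. Their hybrid libraries held 22.2 to 51.6 RPKM and 23.5 to 50.2 RPKM.

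Contig2482cap measured 52.9, 82.4 and 167 RPKM in SD and 31.4 and 5.11 RPKM in SCN, with 56.0 to 118 RPKM in the hybrids. Contig26765 measured 25.1, 68.3 and 102 RPKM in SD and 11.1 and 5.56 RPKM in SCN. Its hybrids held only 17.6 to 24.4 RPKM, all just below the lowest SD library.

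The contigs lower in SD formed the larger set, with a median mean level of 16.5 RPKM in SD and 138 RPKM in SCN. The crosses fell between, with medians of 84.8 RPKM in SDf x SCNm and 82.0 RPKM in SCNf x SDm. The difference ran from 2.02 to 5.38 in size with a median of 2.68, and 5 of the 62 contigs passed 4. The gap between the populations exceeded 1 on the log2 scale in 50 of the 62. Here the low population was the more deeply sequenced one. The 3 SD libraries held a median of 101.5 reads per contig in all, and 6 contigs had 10 or fewer, although 14 had 0 reads in the shallow SD replicate 3.

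Contig42697 led this direction. It stood at 9.24, 9.23 and 5.45 RPKM in SD and at 701 and 189 RPKM in SCN. The hybrids measured 472 and 419 RPKM in SDf x SCNm and 384 and 522 RPKM in SCNf x SDm, all within the SCN range. SCN was 41.6-fold higher than SD on the log2(RPKM + 1) scale.

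Contig12698 had 80.4, 65.8 and 46.3 RPKM in SD against 970 and 3206 RPKM in SCN. Its hybrids spread from 288 to 1029 RPKM, above all SD libraries. Contig25883 measured 7.02, 6.49 and 4.64 RPKM in SD and 98.0 and 179 RPKM in SCN, and all 4 hybrids (120 to 212 RPKM) were in or above the SCN range.

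Other members of the 10 largest kept closer to SD. Contig65246 had 16.5, 6.57 and 15.9 RPKM in SD, 136 and 445 RPKM in SCN and 19.5 to 72.6 RPKM in the hybrids. Contig125528 had 10.8, 8.85 and 18.5 RPKM in SD, 123 and 437 RPKM in SCN, and a narrow 44.6 to 55.7 RPKM in the hybrids. In both the hybrids fell in the gap between the populations in all 4 libraries.

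Contig2043cap measured 526, 401 and 108 RPKM in SD and 2582 and 5453 RPKM in SCN, with hybrids from 795 to 2810 RPKM. Contig28686 measured 4.49, 3.39 and 1.97 RPKM in SD, 101 and 19.5 RPKM in SCN and 39.4 to 79.7 RPKM in the hybrids. Neither overlapped SD in any hybrid library.

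Contig9831 had 93.1, 75.1 and 149 RPKM in SD and 1328 and 914 RPKM in SCN. The crosses did not overlap, at 388 and 469 RPKM in SDf x SCNm and 189 and 303 RPKM in SCNf x SDm. Contig25690 (55.0, 32.2 and 20.3 RPKM in SD, 612 and 197 RPKM in SCN) had hybrids at 194 to 380 RPKM. Contig3947cap (132, 86.8 and 618 RPKM in SD, 1399 and 2499 RPKM in SCN) had hybrids at 636 to 1158 RPKM.

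**Figure D2:**
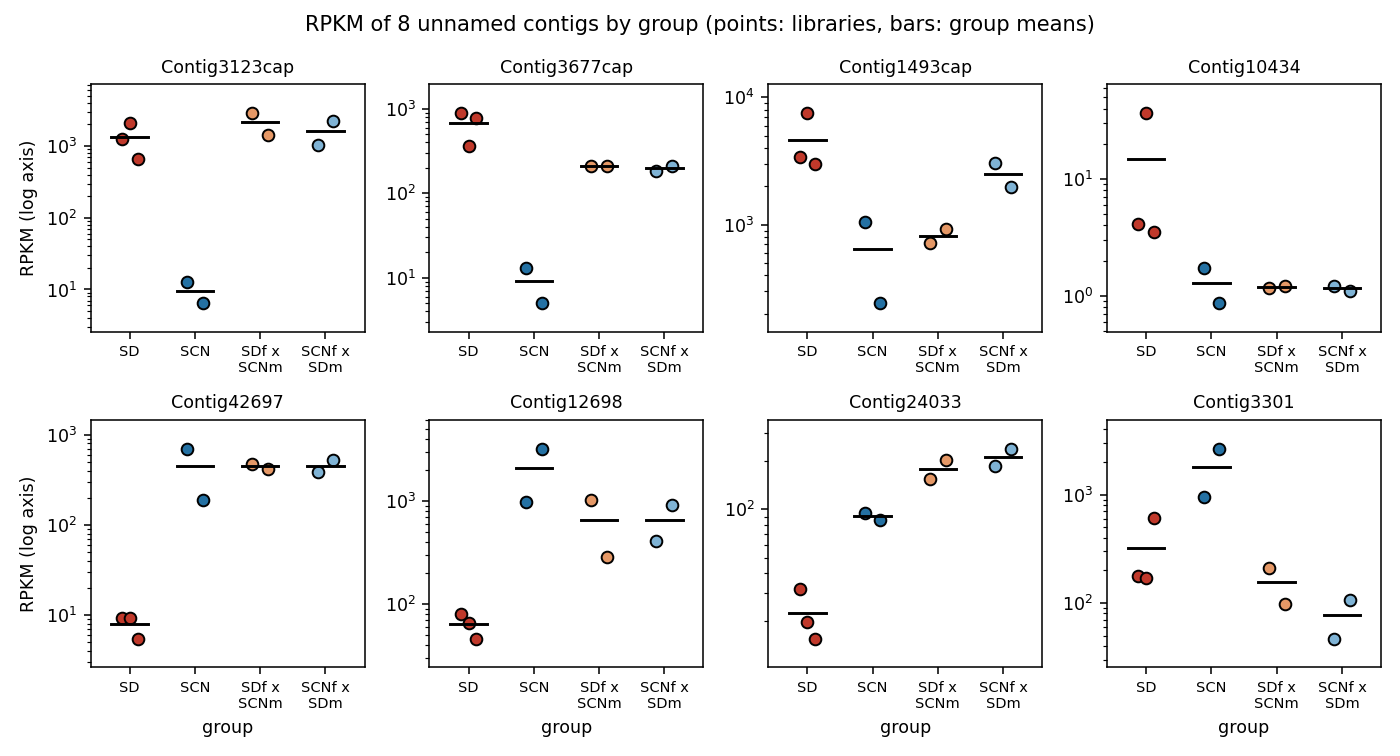
RPKM (log axis) of 8 unnamed contigs in the 4 groups; points are libraries and bars are group means. Contig3123cap and Contig42697 have all hybrids near the higher parent, Contig3677cap and Contig12698 have hybrids between, Contig1493cap has crosses that do not overlap, Contig24033 has hybrids above all parents, and Contig10434 and Contig3301 have hybrids near or below the lower parent; the 8 were picked after their values were seen.

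In the limma fit across all contigs, 0.429% of contigs differed between SD and SCN at an adjusted p under 0.05, and 37 of the 102 unnamed contigs were among them. The rule used that contrast, so nothing is read from this count. For contigs higher in SD the calls were 10 of 40, beside 0.174% of all contigs called in that direction. Lower in SD they were 27 of 62, beside 0.254% of all contigs. SD and SCN libraries did not overlap in 29.0% of all contigs.

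The split of 40 higher and 62 lower depended on scaling. The median-of-ratios factor was 0.6885 for SCN replicate 2 and 0.9946 to 1.091 for the other libraries. Scaling RPKM by median-of-ratios factors moved the median SD minus SCN difference of all contigs from 0.23 to -0.02 on the log2 scale, and the same rule then took 19 higher and 94 lower contigs. Quantile normalization took 23 and 68. With the constant that the deposited values carry removed, it took 129 and 155. The number of contigs taken rose to 346 without SCN replicate 1, which leaves only the shallow SCN replicate 2, and was 165 without both run 3 libraries. Within run 1, SD replicate 1 against SCN replicate 1, the difference reached 2 in 10 of the 40 contigs higher in SD and 40 of the 62 lower in SD. Within run 3 it reached 2 in 32 of the 40 and 49 of the 62.

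The contigs nearest the threshold show what the rule separated. Just inside stood Contig2582 at 2.016, Contig1006 at 2.025, Contig24033 at -2.021 and Contig2101cap at -2.055 on the log2 scale. Just outside stood Contig10673 at 1.988, Contig17530 at 1.987, Contig25304 at -1.997 and Contig3880cap at -1.996. Another pair, Contig3155cap at -2.394 and Contig8539 at 2.034, passed the difference but had overlapping libraries.

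Unnamed contigs met the difference rule more often than named ones. It took 2.68% of unnamed and 0.855% of named contigs (85 of 9947), so that 54.5% of all contigs meeting it were unnamed, against 27.7% of all contigs. Unnamed contigs were also shorter. The coding length recovered from the RPKM steps had a median of 263.5 bases in the 102, 310 bases in all unnamed contigs and 840 bases in all contigs. The 85 named contigs of the same rule had a median of 800 bases. Within length classes, the rule took 3.33% of unnamed and 1.40% of named contigs under 300 bases, 2.80% and 0.893% from 300 to 600 bases, and 1.32% and 0.790% above. Of the 102, 88 had a length that is a multiple of 3 (86.3%), beside 91.6% of all contigs. These shares use the contrast of the rule and are given with no test.

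**Figure D3:**
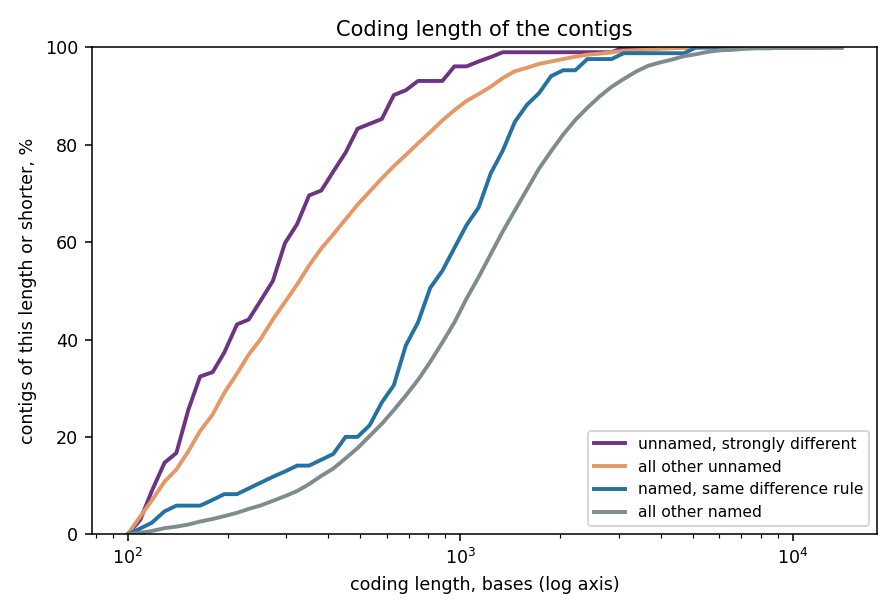
Cumulative share of contigs (%, vertical axis) at or below each coding length (bases, log axis) for the 102 unnamed contigs of the rule, all other unnamed contigs, the 85 named contigs that met the same rule and all other named contigs. The unnamed curves rise first: the median is 263.5 bases for the 102 and 800 bases for the 85.

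The place of each cross between the parents was described by an index that is 0 at the SCN mean and 1 at the SD mean. Values from -0.25 to 0.25 were called the SCN level, from 0.25 to 0.75 between, and values from 0.75 up to the same margin past 1 the SD level. On the log2(RPKM + 1) scale both crosses lay nearer the higher parent, whichever population that was. For contigs higher in SD the median index was 0.72 in SDf x SCNm and 0.79 in SCNf x SDm. For contigs lower in SD it was 0.31 and 0.27. On the linear RPKM scale the medians were 0.49 and 0.62 for contigs higher in SD and 0.50 and 0.51 for those lower in SD. The nearness to the higher parent on the log2 scale was therefore a median placement about midway in RPKM. SCNf x SDm at contigs higher in SD was the exception. Single contigs spread toward both parents.

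By class, 16 of the 40 contigs higher in SD were at the SD level in SDf x SCNm, 19 were between, 4 were at the SCN level and 1 was past SD. In SCNf x SDm the counts were 19, 18, 1 and 2. Of the 62 contigs lower in SD, SDf x SCNm had 25 at the SCN level, 30 between, 3 at the SD level, 3 past SCN and 1 past SD. SCNf x SDm had 21, 29, 4, 7 and 1. On the linear scale more contigs stood at the level of the lower parent, and a few more stood past the higher parent. Among contigs lower in SD, those at the SD level rose to 16 in SDf x SCNm and 18 in SCNf x SDm. Those past SCN rose to 5 and 10, and 26 and 25 of the 62 were between. Among contigs higher in SD, those past SD rose to 2 and 3.

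Libraries were also counted in place of means. For contigs higher in SD, both libraries of SDf x SCNm lay in or past the SD range in 14, in the gap between the populations in 8, on the SCN side in 3, and were mixed in 15. For SCNf x SDm these counts were 16, 9, 1 and 14. For contigs lower in SD they were 4, 21, 14 and 23 in SDf x SCNm and 5, 24, 19 and 14 in SCNf x SDm.

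**Figure D4:**
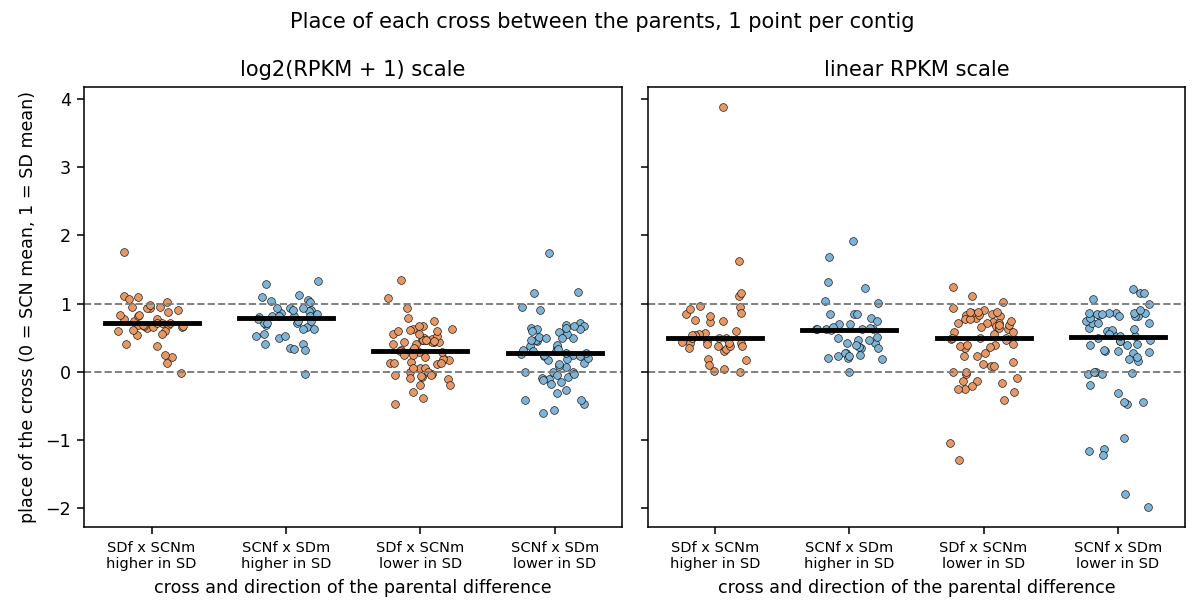
Place of each cross between the parents (vertical axis; 0 is the SCN mean and 1 the SD mean, dashed lines) for each unnamed contig, by cross and by direction of the parental difference, on the log2(RPKM + 1) scale (left) and the linear RPKM scale (right); points are contigs and bars are medians. The medians of 0.72, 0.79, 0.31 and 0.27 on the left become 0.49, 0.62, 0.50 and 0.51 on the right.

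The 85 named contigs that met the same difference rule had medians of 0.62 and 0.68 where higher in SD and 0.25 and 0.33 where lower in SD on the log2 scale, and of 0.38, 0.45, 0.41 and 0.57 on the linear scale. The place of the crosses is built on the values that chose both sets, so the difference between them was not tested.

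Both crosses fell in the same class in 73 of the 102 contigs (71.6%), beside 47 of the 85 named ones (55.3%). In 14 contigs both crosses were at the SD level, in 36 between and in 18 at the SCN level. Another 2 had both past SD and 3 had both past SCN. In only 2 contigs did the crosses stand 2 classes apart. Contig24935 measured 114 and 201 RPKM in SDf x SCNm against 434 and 351 RPKM in SCNf x SDm, with 196 to 323 RPKM in SD and 89.3 and 29.9 RPKM in SCN. Contig16982 measured 25.9 and 42.7 RPKM against 122 and 59.1 RPKM, with 95.8 to 167 RPKM in SD and 58.3 and 7.95 RPKM in SCN. In both, SCNf x SDm was the cross with the higher level, and for Contig24935 its mean was past the SD mean.

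The comparison of the crosses uses no parental library in the difference. Its error does take in the spread of the SD and SCN libraries that chose the contigs, so size and error are not both independent of the rule. With limma, 0 of the 102 contigs differed between SDf x SCNm and SCNf x SDm at an adjusted p under 0.05, and 0.0% of all contigs did. At an unadjusted p under 0.05, 4 of the 102 differed (3.92%), beside 39 of 13758 contigs (0.283%). All 4 belonged to the contigs higher in SD. With no difference, a share of about 0.05 would be expected, so over all contigs the test was conservative. The voom fit on recovered reads also called 0 contigs. In simulated data each contig had the same spread in all 4 groups, pooled over parents and hybrids. There limma called 0% of cross differences of 1 on the log2 scale. It called 28% of those of 2, 50% of those of 3 and 86% of those of 4. The hybrid libraries may spread less than that, so these rates need not hold for the crosses. With 2 libraries per cross, a difference that misses the threshold does not show that the crosses were alike.

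The 3 smallest p-values belonged to Contig21541, Contig24935 and Contig4046. Contig21541 measured 36.6 and 32.2 RPKM in SDf x SCNm, against an SD range of 33.9 to 39.7 RPKM. The second value lay just below that range. In SCNf x SDm it measured 16.6 and 19.7 RPKM, above the SCN values of 8.20 and 7.75 RPKM. The difference was 0.89 ± 0.35 (log2, SE; limma adjusted p = 1.0). Contig24935 differed by -1.36 ± 0.53 (limma adjusted p = 1.0).

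Contig4046 measured 29.9 and 31.2 RPKM in SDf x SCNm and 17.3 and 13.1 RPKM in SCNf x SDm. SDf x SCNm lay inside the SD range of 27.1 to 49.2 RPKM, and SCNf x SDm fell between it and the SCN values of 9.42 and 7.11 RPKM. The crosses differed by 0.97 ± 0.40 (limma adjusted p = 1.0). The 4th was Contig1493cap, described above, at -1.60 ± 0.71 (limma adjusted p = 1.0). None of these passed the adjusted threshold, and the 4 did not share a direction.

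The crosses did not overlap in 38 of the 102 contigs (37.3%), beside 28.7% of all contigs. Their difference was 1 or more on the log2 scale in 11 of the 102 (10.8%), beside 1.33% of all contigs. The 85 named contigs of the rule were alike in this, with 42.4% and 14.1%. Of these 11 contigs, 6 were higher in SD, and in all 6 SCNf x SDm was the higher cross. Contig295 was one, at 477 and 450 RPKM in SDf x SCNm and 968 and 997 RPKM in SCNf x SDm, with 618, 1752 and 556 RPKM in SD and 292 and 72.9 RPKM in SCN. Contig295 was chosen after its values were seen. Of the same 11, the 5 lower in SD were split. SCNf x SDm was the higher cross in Contig9206, Contig23110 and Contig3861cap, and the lower one in Contig3301 and Contig7788. Over all 40 contigs higher in SD, SDf x SCNm was the higher cross in 23.

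The log2 index was higher in SDf x SCNm than in SCNf x SDm in 59 of the 102 contigs (57.8%), beside 55.3% of all contigs. SDf x SCNm replicate 1, alone in run 4, lay outside the other 3 hybrid libraries by more than 1 on the log2 scale in 10 of the 102 (9.80%), beside 2.70% of all contigs. The other 3 hybrid libraries did so in 0, 3 and 1. Contig7788, at 427 RPKM in that library against 42.1 to 48.9 RPKM in the other 3, was the widest case and was chosen after its values were seen. Within run 5, the only run with both crosses, the difference reached 1 in 5 of the 102 contigs (4.90%) and in 1.26% of all contigs. These were Contig1493cap at -1.42, Contig2043cap at -1.19, Contig295 at -1.13, Contig12698 at -1.08 and Contig4046 at 1.00.

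Hybrids were then compared with the midparent, here the point halfway from the SD to the SCN mean in log2(RPKM + 1). With limma, 11 of the 102 contigs (10.8%) differed from it at an adjusted p under 0.05, beside 0.8% of all contigs. Of these, 10 were above the midparent (0.792% of all contigs) and 1 was below (0.00727% of all contigs). The parental libraries in the midparent are those that chose the contigs. The summed cuticle contigs also stood higher in hybrids, at 20031 and 33584 RPKM in SDf x SCNm and 47103 and 41759 RPKM in SCNf x SDm against 7679 to 23434 RPKM in the parents, and the part of this in the midparent result was not tested. The median of hybrids minus midparent was 0.60 over the 102 contigs and 0.15 over all contigs. It was 0.50 over the 85 named contigs of the same rule and 0.31 over all unnamed contigs. In those 2 sets 2.35% and 1.63% of contigs were called. Median-of-ratios scaling took the median of all contigs to 0.00, and 7 of the 11 calls held.

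For parents this far apart the arithmetic mean lies well above the log2 midparent. Against the arithmetic midparent, the median of the hybrids was 0.04 on the log2 scale and 53 of the 102 contigs lay above it. No test was run against the arithmetic midparent, and values against it are given beside most calls.

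The 3 contigs with all 4 hybrid libraries above all 5 parental ones were Contig24033, Contig6819 and Contig2173cap, 2.94% of the 102 beside 5.86% of all contigs. In 0 of the 102 did all 4 lie below all 5, beside 1.5% of all contigs. The rule widens the parental range that the hybrids must pass, so nothing is read from these shares. Contig6819 measured 105, 148 and 58.5 RPKM in SD, 1109 and 434 RPKM in SCN, 1431 and 1503 RPKM in SDf x SCNm and 1894 and 2304 RPKM in SCNf x SDm. Hybrids exceeded the midparent by 2.75 ± 0.38 (log2, SE; limma adjusted p = 0.0237) and the arithmetic midparent by 2.00.

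Contig24033 measured 32.0, 19.7 and 15.6 RPKM in SD, 94.6 and 85.9 RPKM in SCN, 154 and 202 RPKM in SDf x SCNm and 186 and 239 RPKM in SCNf x SDm. It exceeded the midparent by 2.10 ± 0.28 (adjusted p = 0.0237) and the arithmetic midparent by 1.77. Contig2173cap was the one of the 3 that was higher in SD, at 44.4, 33.1 and 47.9 RPKM there and 18.4 and 3.99 RPKM in SCN. Its hybrids held 163 and 96.4 RPKM in SDf x SCNm and 88.2 and 51.9 RPKM in SCNf x SDm, 2.19 ± 0.41 above the midparent (adjusted p = 0.0452) and 1.81 above the arithmetic one.

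Contig3123cap and Contig42697, the leading contigs of either direction, exceeded the midparent by 3.99 ± 0.43 (adjusted p = 0.0202) and 2.98 ± 0.38 (adjusted p = 0.0237). Against the arithmetic midparent they stood at 1.48 and 0.98. Contig25883, with 11, 3 and 0 reads in SD, exceeded the midparent by 2.29 ± 0.30 (adjusted p = 0.0237) and the arithmetic one by 1.06. In these 3 the cross means lay near or past the mean of the higher parent.

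The remaining contigs above the midparent were all lower in SD. Contig34072 measured 4.45, 4.53 and 4.24 RPKM in SD, 35.6 and 33.3 RPKM in SCN and 31.9 to 44.7 RPKM in the hybrids, 1.46 ± 0.24 above the midparent (adjusted p = 0.029). It held 2, 1 and 0 reads in SD, so its SD values were mostly the constant that the deposited values carry. Its midparent rests on them. Contig3861cap measured 17.1, 14.8 and 11.1 RPKM in SD and 112 and 172 RPKM in SCN, with 84.3 to 352 RPKM in the hybrids and an excess of 1.95 ± 0.33 (adjusted p = 0.0328). On the log2 index, both crosses of Contig34072 were at the SCN level. For Contig3861cap, SDf x SCNm was at the SCN level and SCNf x SDm was past SCN. The hybrids of Contig34072 stood 0.90 above the arithmetic midparent, and those of Contig3861cap stood farther above it.

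Contig27059 measured 24.1, 22.7 and 22.0 RPKM in SD, 120 and 107 RPKM in SCN and 80.7 to 261 RPKM in the hybrids, an excess of 1.62 ± 0.29 (adjusted p = 0.0387), or 1.28 over the arithmetic midparent. Contig61416, the 11th call and outside the 10 smallest p-values, had 6.33, 6.26 and 3.04 RPKM in SD, 69.6 and 27.0 RPKM in SCN and 42.2 to 92.7 RPKM in the hybrids (1.99 ± 0.39, adjusted p = 0.0495). No hybrid library of either contig overlapped SD.

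Contig3301 was the only contig of the whole series called below the midparent. It stood at 179, 171 and 613 RPKM in SD and 955 and 2659 RPKM in SCN, and at 212 and 98.0 RPKM in SDf x SCNm and 46.7 and 107 RPKM in SCNf x SDm. The hybrids were 2.68 ± 0.51 lower than the midparent on the log2 scale (adjusted p = 0.0472), and stood at -3.27 against the arithmetic one. Of the 4 hybrid libraries, 3 lay below every parental library.

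The midparent calls depended on single libraries. Without SD replicate 1, SDf x SCNm replicate 1 or either SCNf x SDm replicate, 0 of the 102 contigs were called, and without SDf x SCNm replicate 2 only Contig3123cap was. Without SCN replicate 1, 33 were, all 11 among them. Without SD replicates 2 or 3, or without SCN replicate 2, 7, 5 and 6 were called, and 6 without both run 3 libraries. Contig3301 lost its call in 12 of 17 refits, among them those with pseudocount 0.1, with median-of-ratios scaling and without both run 3 libraries. Its sign stayed negative in all 17. Of the same 17 refits, Contig27059 and Contig3861cap lost their calls in 11, Contig2173cap in 10, Contig34072 in 7, Contig24033, Contig25883, Contig42697 and Contig6819 in 5, and Contig3123cap in 4.

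**Figure D5:**
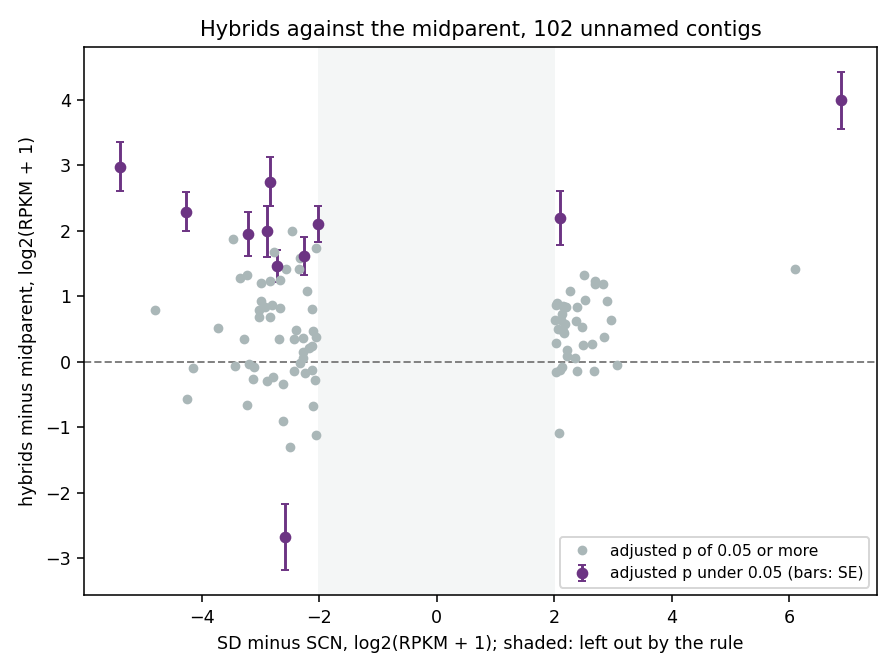
Hybrids minus midparent (vertical axis, log2) against SD minus SCN (horizontal axis, log2) for the 102 unnamed contigs; purple points have a limma adjusted p under 0.05, with bars of 1 standard error, and the shaded band holds the differences the rule leaves out. Of the 11 purple points, 10 lie above 0 and Contig3301 lies below, at -2.68.

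A few contigs were empty in whole groups. Contig10434, 888 bases long, had 45, 173 and 2 reads in SD, 2 and 0 reads in SCN and 0 reads in all 4 hybrid libraries. With a floor of 3 reads over each group, SD was at least 62.7-fold higher than SDf x SCNm and at least 84.9-fold higher than SCNf x SDm in reads scaled to library depth. Most of its SD reads came from SD replicate 2, at 36.8 RPKM against 4.09 and 3.50 RPKM in the other two. Without SD replicate 2 these bounds were 17.4-fold and 23.6-fold, and without SD replicate 1 they were 184-fold and 249-fold. Contig24959 had 11, 38 and 5 reads in SD and 0 in both SCN libraries, at least 4.27-fold higher in SD. That bound was 1.64-fold without SD replicate 2 and 12.5-fold without SD replicate 1. Its hybrids held 18.9 to 36.9 RPKM. Both contigs, and the bounds without single libraries, were chosen after the data were seen.

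The contigs whose levels ran most like the 2 leading ones over the 9 libraries were found by Pearson correlation of log2(RPKM + 1), as a description of libraries that share groups and depth. For Contig3123cap they were Contig26947, named as a THAP domain-containing protein (r = 0.97), the unnamed Contig13815 (r = 0.97) and Contig6025, named as an arginine and serine rich coiled-coil protein (r = 0.96). Contig26947 was far less variable, with 20.5 to 29.3 RPKM in SD and 7.76 and 11.4 RPKM in SCN. For Contig42697 they were Contig24649, named failed axon (r = 0.99), and the unnamed Contig10546 and Contig61416 (both r = 0.98). Contig24649 measured 12.2 to 14.6 RPKM in SD and 39.1 and 42.8 RPKM in SCN, and Contig10546 4.08 to 5.12 RPKM in SD and 23.7 and 45.9 RPKM in SCN. Both had hybrids at the SCN level, from 37.2 to 47.7 RPKM and from 26.5 to 43.0 RPKM.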

How the data were processed

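The authors deposited 1 table per library of RPKM values, which per the file headers are given for paired SD and SCN contigs with a predicted protein name where there was one. Not given in the sources used here are the aligner, which assembly received the reads of each library, the counting and the treatment of reads shared by similar contigs. Low RPKM values lay on steps of 1 read above an added constant of 1.12 to 18.41 reads. Whole reads came back for 99.99% of contigs, with 99.98% of values no more than 0.05 read off. A single coding length fitted each contig in all 9 libraries. Recovered reads gave depth, length and an alternative fit only.

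Groups followed the titles. The main test was limma 3.58.1 (R 4.3.3) with a mean-variance trend on log2(RPKM + 1), fitted to 13758 contigs in 9 libraries with 4 group means. The threshold was a Benjamini-Hochberg adjusted p of 0.05, with the adjustment over all contigs. Fold changes on this scale understate changes of low contigs. Contrasts were SD minus SCN, SDf x SCNm minus SCNf x SDm, and hybrids minus midparent. The place index has no test. No filter on low values was applied, so all 102 contigs were fitted. The fitting code was tested on simulated data. The members and lists were chosen with earlier results of these data known.

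Contigs named with values were the 10 with the largest difference in each direction, those called in a contrast (at most 10, or the 3 with the smallest p where none passed), the 2 just inside and just outside the threshold in each direction, and the 3 most alike to each leading contig. Others are said to have been chosen after their values were seen. A planned count test with edgeR and DESeq2 was not used, because the deposited unit is RPKM, and limma voom on recovered reads took its place. Identifiers were looked up in RefSeq genes of assembly Tcal_SD_v2.1 with 0 matches, so coordinates and sequences are absent here.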

Additional observations from a re-analysis of the deposited data

Results flagged for a closer look

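Among 30 of the contigs named above, 4 had 1 hybrid library set apart from the other 3 by a gap test on log2 values. Chance flags about 1 of 20 groups, and the share over all contigs is not given here. The test sets the gap against the spread, so a small gap is flagged where the other 3 lie close. These were Contig3677cap in SCNf x SDm replicate 1 at 181 RPKM, Contig11661 in SDf x SCNm replicate 2 at 41.6 RPKM, Contig26765 in SCNf x SDm replicate 2 at 24.4 RPKM and Contig3947cap in SCNf x SDm replicate 2 at 1158 RPKM. For the other 3 hybrid libraries Contig3677cap held 211 to 213 RPKM, Contig11661 61.2 to 64.0 RPKM, Contig26765 17.6 to 18.1 RPKM and Contig3947cap 636 to 675 RPKM.

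In another 4 of the same 30 contigs both libraries of one cross lay above the midparent and both of the other cross below it. The share over all contigs is not given here. This difference in direction was not tested. The mean of SDf x SCNm minus that of SCNf x SDm was -1.60 for Contig1493cap, -0.26 for Contig125528, 0.83 for Contig9831 and 0.97 for Contig4046 on the log2 scale. Contig1493cap and Contig4046 were higher in SD, and Contig125528 and Contig9831 were lower in SD.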

How the results depend on the processing

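The cross comparison called 0 contigs in the main fit and in all 19 alternatives, and the signs of the contigs named from it and from the midparent comparison did not change in any alternative. The other counts moved. The rule took 65 contigs with pseudocount 5, 284 with the added constant removed, 250 at a difference of 1.5, 21 at 3, 165 without both run 3 libraries, and 93 to 346 as single parental libraries were left out. With at least 10 reads in every library of the higher population, an alternative chosen after seeing the data, it took 87. SD against SCN called 59 contigs in the main fit, 95 with quantile normalization, 10 with a replicate block, 28 with voom and 11 to 3085 with single libraries left out. Of the 102 it called 37, then 7 with a replicate block, 19 with voom, 23 without both run 3 libraries and 8 to 83 with single libraries left out. Hybrids against midparent called 110 contigs, then 193 with pseudocount 5, 170 with quantile normalization, 55 with a replicate block and 0 to 2985 with single libraries left out. Of the 102 it called 11, then 7 with median-of-ratios, 6 with a replicate block, 6 without both run 3 libraries and 0 to 33 with single libraries left out. Where a group was left with 1 library, that library was assumed to vary like the other groups. With a block for sequencing run, SD against SCN called 76 contigs in all and 39 of the 102. The replicate block follows the replicate numbers, which put SD replicate 2 of run 2 with SCN replicate 2 of run 3.

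The replicate numbers were not taken to pair the samples, and not every same-numbered pair deviated together. Their deviations correlated at -0.55 between the crosses, at 0.23 and -0.18 for SD with SCN, at 0.11 and 0.34 for SD with SDf x SCNm, at 0.01 and -0.28 for SD with SCNf x SDm, at -0.30 for SCN with SDf x SCNm and at 0.36 for SCN with SCNf x SDm. In a group of 2 libraries the deviations mirror each other, so these signs show neither pairing nor its absence. SD replicate 3 and SCN replicate 2, which shared run 3, correlated at 0.32. The crossed pairing of the 4 hybrid libraries, added after seeing the data, also called 0 contigs. A planned count test with edgeR and DESeq2 was not run.

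The place counts moved most with the scale and the class bounds. For contigs higher in SD, SDf x SCNm had 17 at or past the higher parent (11 on the linear scale, 26 with a narrower middle class, 13 to 25 with single libraries left out), 19 between (10 with the narrower class, 14 to 21) and 4 at or past the lower parent (1 to 6). SCNf x SDm had 21 (10 on the linear scale, 13 without both run 3 libraries, 18 to 28), 18 (11 with the narrower class, 11 to 20) and 1 (7 on the linear scale, 5 with quantile normalization, 3 with median-of-ratios, 2 with the narrower class, 2 without both run 3 libraries, 1 to 5). For contigs lower in SD, SDf x SCNm had 28 at or past the higher parent (25 to 34), 30 between (23 to 32) and 4 at or past the lower parent (16 on the linear scale, 2 to 10). SCNf x SDm had 28 (23 to 35), 29 (17 with the narrower class, 23 to 31) and 5 (18 on the linear scale, 9 with the narrower class, 4 to 10). Low levels were limited by depth: 0.97 M and 1.63 M reads in the run 3 libraries left 0 reads in 7.55% and 8.19% of contigs.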
